A study of Mus musculus with 29 samples.

Results

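Gene-body CpGs seen in every library are the cytosine-guanine dinucleotides, with both strands merged, that carried 1 or more reads in all 15 DNA methylation libraries of the study, lay inside a protein-coding gene and were more than 1 kb from any gene start. They numbered 5436, which is 40.3% of the 13482 CpGs read in every library, while 2608983 CpGs had a read in at least 1 library. Members were chosen by measured coverage and by position, so coverage is described here and not tested, whereas the methylation level played no part in the choice. Repeat-like stretches on chromosomes 2 and 9 and a stretch of distal chromosome 7, which held 1590 CpGs read in every library, were left out. The libraries came from pancreatic islets, the endocrine clusters of the pancreas, of wild-type male C57BL/6 mice, an inbred strain. Young mice were 8 weeks old and old mice 52 weeks old when they were placed for 1 week on a standard diet with 13.1% of kcal from fat or on a high-fat diet with 41% of kcal from fat. Bisulfite libraries of selected regions numbered 4 in young mice on the standard diet, 4 in young mice on the high-fat diet, 4 in old mice on the standard diet and 3 in old mice on the high-fat diet. The labels do not say whether a library is 1 animal or a pool, so the p-values refer to libraries, and whole islets hold several cell types. The spread between libraries behind each p-value was moderated over the CpGs or clusters tested. It was not allowed below that of read sampling.

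DNA methylation in mammals is the addition of a methyl group to the cytosine of a CpG. Bodies of transcribed genes are usually methylated, whereas CpG-dense promoters and many enhancers usually are not, and an unmethylated stretch inside a gene often marks an internal promoter or another regulatory element. Bisulfite turns unmethylated cytosine into a base read as thymine and leaves methylated cytosine, so the share of reads with cytosine is the methylation level. Beta cells, the insulin-producing cells of the islet, divide at a low rate that rises with metabolic load in young animals and falls with age.

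Members lay in 3 of the RefSeq promoter windows available here, each of 300 bases and ending 50 bases after a start. In these windows the members could be read in sequence. The available RefSeq starts were incomplete, and 223 members lay on chromosomes without any. A run of low Ccnd1 members 1018 bp from the gene start had its nearest RefSeq start 22373 bp away. The 3 windows are shown because 2 of them are internal starts of host genes with the same count of a GC-box motif and far apart in level. In the third, the members, which lie near its end, were highly methylated. Capitals mark the member CpGs, and each sequence runs 5′ to 3′ on the plus strand of GRCm38.p6 (mm10).
Cdkn1a, internal start, chr17:29093519-29093818: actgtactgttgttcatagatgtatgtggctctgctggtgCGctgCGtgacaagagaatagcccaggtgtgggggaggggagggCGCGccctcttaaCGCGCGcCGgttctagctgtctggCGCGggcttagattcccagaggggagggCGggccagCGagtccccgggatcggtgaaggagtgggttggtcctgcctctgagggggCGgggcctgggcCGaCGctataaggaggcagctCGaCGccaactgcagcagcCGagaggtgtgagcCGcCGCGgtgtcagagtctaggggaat
Elovl1, internal start, chr4:118429451-118429750: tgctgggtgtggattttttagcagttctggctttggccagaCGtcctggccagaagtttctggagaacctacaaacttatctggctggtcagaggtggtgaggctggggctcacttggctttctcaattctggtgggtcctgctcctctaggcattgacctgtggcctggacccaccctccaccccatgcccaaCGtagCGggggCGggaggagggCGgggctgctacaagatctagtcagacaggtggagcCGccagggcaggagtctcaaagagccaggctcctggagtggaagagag
Gm6109, a predicted gene within Jmy, chr13:93448171-93448470: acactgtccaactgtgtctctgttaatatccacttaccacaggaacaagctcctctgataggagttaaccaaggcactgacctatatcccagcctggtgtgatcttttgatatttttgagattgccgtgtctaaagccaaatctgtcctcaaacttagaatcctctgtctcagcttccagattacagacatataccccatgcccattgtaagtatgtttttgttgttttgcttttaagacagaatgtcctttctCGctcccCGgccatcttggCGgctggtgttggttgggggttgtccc

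The Cdkn1a window lies at a RefSeq start 2790 bp downstream of the gene start at 29090979, and 21 of its 23 CpGs were members. Their mean level was 0.568%, and the library means ran from 0 to 2.54%, at 5.63 reads per CpG and library. In the Elovl1 window, 1608 bp from the gene start, 6 of 6 CpGs were members, with a mean of 55.9% and single CpGs from 34.3 to 73.6%. Library means in that window ran from 26.2 to 79.9%, a wide range at 8.84 reads per CpG and library, and the 4 groups overlapped. The group means were 62.4 ± 14.1 and 47.1 ± 14.2% in young libraries, standard before high-fat diet (SD). In old libraries they were 62.8 ± 12.8 and 46.9 ± 14.2%, and the window as such was not tested. In the Gm6109 window, 3 of 4 CpGs were members. Their mean was 95.4%, with library means from 66.7 to 100%, at 3.42 reads per CpG and library. The motif GGGCGG, searched on both strands, occurred 2 times in the Cdkn1a window, 2 times in the Elovl1 window and 0 times in the Gm6109 window, and 35.7% of 32851 RefSeq promoter windows hold it. At least 23 CpGs are found in 21.5% of those windows.

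Reads over CpGs numbered 488262 to 799617 per library, and the median CpG listed in a library had 1 read. Members were covered more deeply because they were chosen by coverage: the median member averaged 11.9 reads per library, with 3.2 reads at the 5th and 20.6 at the 95th percentile. At least 10 reads in every library were found at 600 members and at least 5 at 2950. Gene-body CpGs that just missed the rule, being read in 14 libraries, numbered 935, and their median member averaged 2.27 reads and a level of 91.7%. At the distance limit, 91 CpGs in coding genes at 1000 to 1100 bp from a start had a median level of 21.5%, against 11% for 94 CpGs at 900 to 1000 bp. Mitochondrial CpGs, which serve as a rough check of conversion, had no methylated read in 14 of 15 libraries and 3% of 100 reads in young high-fat library 4. The check rests on only 21 to 138 mitochondrial reads per library. In the RNA of these islets, the hormone Ins1 ran from 38076 to 86203 CPM, each count scaled to the total of its sample. The beta-cell gene Iapp ran from 14676 to 23711 CPM and the hormone Gcg from 8423 to 31251. In old samples the acinar enzyme Pnlip was above Gcg. Pnlip stood at 15782 and 17717 CPM and Gcg at 11255 and 10590, standard before high-fat diet. The acinar enzymes Cpa1, Cela1, Prss2, Pnlip and Ctrb1 summed to 15996 to 33305 CPM in young standard-diet and 1630 to 25327 in young high-fat RNA samples. In old RNA samples they summed to 40960 to 109740 CPM on the standard and 45015 to 91848 on the high-fat diet. The part of acinar cells in any difference of methylation with age or diet was not tested.

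Most members were highly methylated. The median level, pooled over libraries, was 87.7%, with quartiles of 74.0 and 93.0%. Under 20% were 479 members (8.81%), from 20 to 80% were 1263 (23.2%), and over 80% were 3694 (68%). The 3897 CpGs near gene starts, read in every library, had a median of 0.725% and 75.5% of them were under 20%. The 3456 intergenic CpGs had a median of 84.0%, with 59.5% over 80%. In each library the mean over gene-body CpGs was above the mean over intergenic CpGs, in 15 of 15 libraries, by 2.67 ± 0.321 percentage points (SD, n = 15). The 3 sets share libraries and capture, so that this is a description and carries no test. Adjacent members resembled each other: the median absolute difference was 3.51 points in 1605 pairs at most 20 bp apart and 6.91 points in 1258 pairs more than 100 and up to 500 bp apart.

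The level was higher further from the nearest gene start. Between 1 and 1.5 kb the median of 386 members was 60.4%, with 30.8% of them under 20%. Between 1.5 and 2 kb the median was 81.2%, between 3 and 5 kb it was 86.4%, and for the 261 members beyond 20 kb it was 92.0%, with 0.766% of them under 20%. The share of low CpGs did not fall evenly: it was 10.6% at 2 to 3 kb and 13% at 3 to 5 kb. A long unmethylated stretch of Cdkn1a runs through both bins. Library means within the nearest bin ran from 49.8 to 53.4%, and within the farthest from 85.5 to 90.6%, so these 2 bins were apart in every library.

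**Figure D1:**
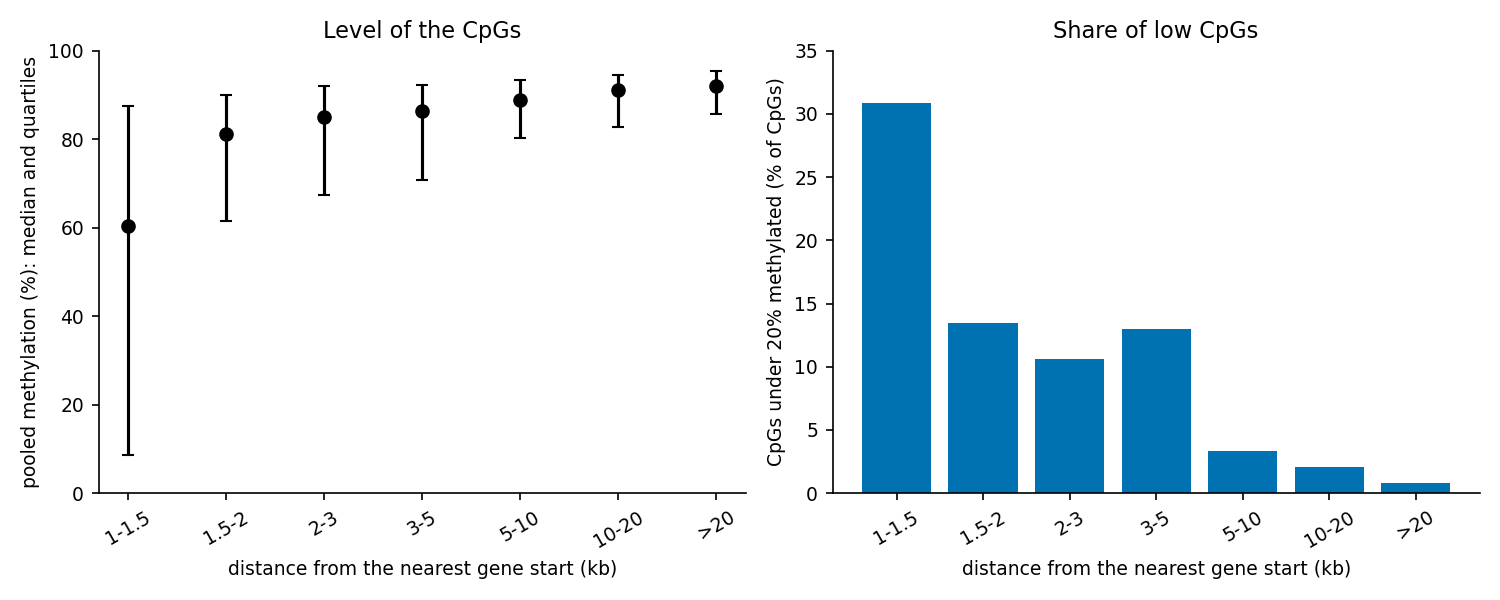
Left, median and quartiles of the pooled methylation of gene-body CpGs in 7 bins of distance from the nearest gene start (x axis, kb; y axis, percent). Right, the share of CpGs under 20% methylated in the same bins; the median climbs from 60.4 to 92.0% and the low share falls from 30.8 to 0.766%.

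The members lay in 257 protein-coding genes on 19 chromosomes, but 56 genes with 20 or more members held 4913 of them (90.4%), and 83 genes held a single one. A member inside more than 1 coding gene, of which there were 129, counts for each. Of 8 gene lists with 293 genes, 8 genes held a member, and 7 of these belong to the 28 genes of the cell cycle and Myc list. The libraries were of selected regions and members were chosen by coverage. These counts therefore describe where reads fell and are not a result about gene bodies, and the share over all genes was not computed. Myc itself, the transcription factor named in the series title, held 0 members. Cdca2, a mitotic chromatin protein, held most, with 393, followed by Cdkn1a with 269 and Mki67, the proliferation marker Ki-67, with 215. Cdk1, the main kinase of mitosis, held 202, and Usp5, a deubiquitinase, 193. Ccnd2 and Ccnd1, the cyclins D2 and D1 that drive cells out of G1, held 179 and 167. Plk1, a mitotic kinase, held 153, Ube2c, an enzyme of the anaphase-promoting complex, 152, Ccnb2, cyclin B2, 149, and Bag3, a co-chaperone of Hsp70, 140.

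The genes with most members differed widely in level. Of the 56 genes with 20 or more members, 29 had a mean over 80%, 20 a mean of 60 to 80%, and 7 a mean under 60%. Mki67, which spans chr7:135689788-135716379, averaged 88.8%, and 193 of its 215 members were over 80%. The library means of Mki67 were 88.6 ± 0.526% in young standard-diet, 88.5 ± 0.708% in young high-fat, 89.0 ± 0.536% in old standard-diet (SD, n = 4 each) and 89.6 ± 0.325% in old high-fat libraries (SD, n = 3). Ccnb2 averaged 89.1%, with 136 of 149 members over 80%, and Cdca2 averaged 85.8%, with 325 of 393. Plk1 averaged 85.9%, Usp5 85.9% and Cdk1 83.2%. Outside the naming rule, Hmmr, a spindle protein, averaged 91.1%, Top2a, a DNA topoisomerase, 88.8%, and Nusap1, a spindle protein, 88.1%. Ube2c (78.0%), Bag3 (77.1%) and Ccnd2 (74.2%) were lower, with 67 of 152, 52 of 140 and 64 of 179 members between 20 and 80%.

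**Figure D2:**
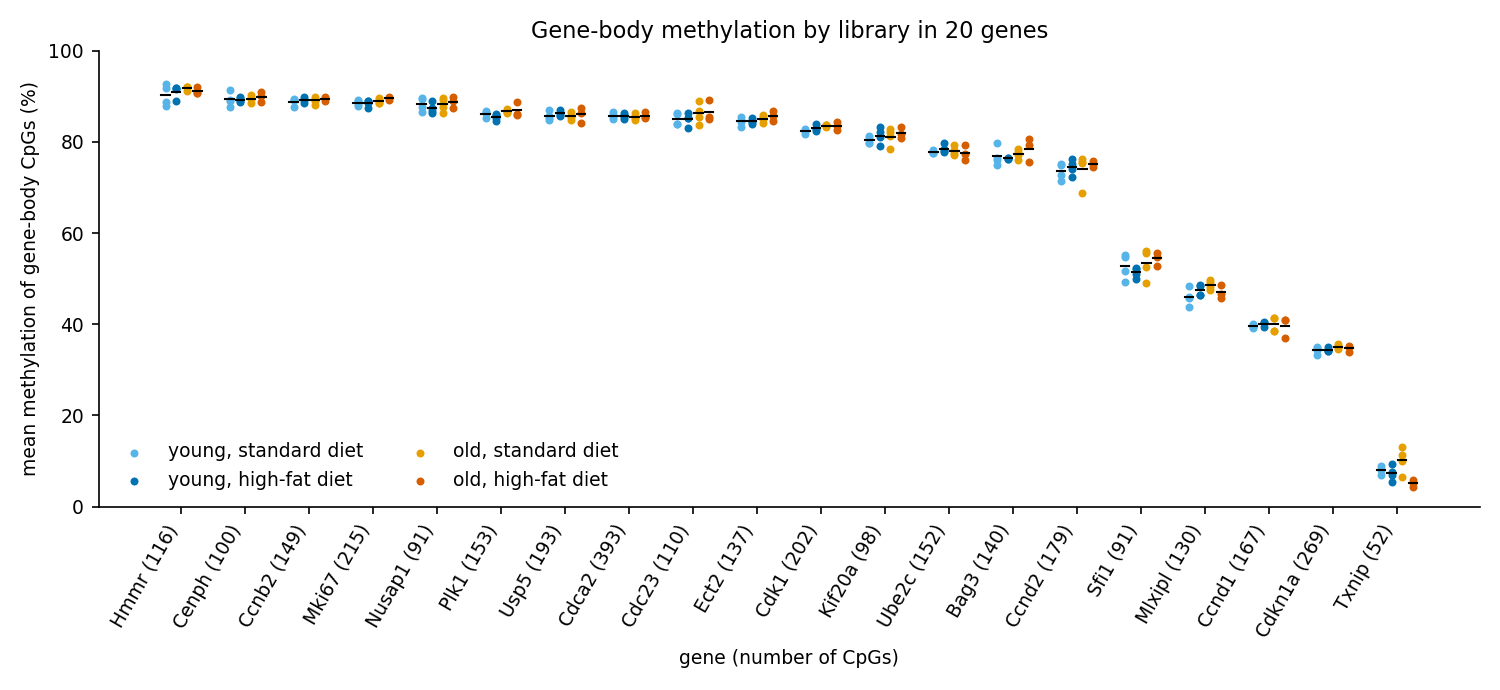
Mean methylation of gene-body CpGs in percent (y axis, 0 to 100) for 20 genes (x axis, with the number of CpGs), 1 point per library, coloured by group, with a black line at the group mean. Mki67 lies between 87.5 and 89.8% in every library, whereas Mlxipl, Ccnd1, Cdkn1a and Txnip lie below 50%.

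The low members were concentrated. Of the 479 members under 20%, 328 (68.5%) lay in Cdkn1a, Ccnd1, Txnip and Mlxipl, genes that hold 11.4% of all members. These genes were taken because they held the most low members, so a share above 11.4% is built into the choice. Cdkn1a encodes p21, an inhibitor of cyclin-dependent kinases. Along this gene the mean level was 69.6% at 1 to 2.5 kb from the start (27 members), 0.822% at 2.5 to 5 kb (157 members) and 86.0% at 5 to 10 kb (85 members). The unmethylated stretch held 155 consecutive members at chr17:29093418-29095823, and its library means ran from 0.215 to 1.16%. It begins upstream of the RefSeq window shown above and holds that internal start.

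Ccnd1 was low near its start and methylated further in. Its first stretch, 74 members at chr7:144937473-144938852, averaged 0.648%, with library means from 0.0902 to 1.27%. Members at 2.5 to 5 kb averaged 57.9% and at 5 to 10 kb 75.4%. Txnip, a thioredoxin-binding protein strongly induced by glucose, lies at chr3:96557957-96561883 and was low over most of its members. The mean over its 52 members was 7.84%, 45 were under 20% and 0 were over 80%. Members at 1 to 3 kb from its start averaged 2.93% and the 11 at 3 to 4 kb averaged 26.2%. Mlxipl encodes ChREBP, the transcription factor that carries the glucose signal to genes such as Txnip. Its members averaged 5.45% at 1 to 2 kb, 17.0% at 2 to 4 kb and 74.2% at 4 to 8 kb.

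Runs of at least 5 neighbouring members, each under 20% and at most 200 bp apart, numbered 17 and held 379 members. Of these, 7 runs with 309 members lay in Cdkn1a, Ccnd1, Txnip and Mlxipl, and 10 runs with 70 members lay in 8 other genes. In the other genes, 5 of the 10 runs began less than 1.2 kb from a gene start, next to the distance limit. The same held for 3 of the 7 runs in the 4 genes, at 1018 bp in Ccnd1, 1020 bp in Txnip and 1030 bp in Mlxipl. Ccnd2 averaged 22.6% over 8 members at 8 to 9 kb, with libraries from 9.58 to 36.8%. Sfi1, which encodes a centrosomal protein, differed from the rest in kind: 64 of its 91 members lay between 20 and 80%, 9 lay over 80%, and its mean was 52.8%. Kctd9 and Drg1, with 27 and 23 members, averaged 49.3 and 57.6%.

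**Figure D3:**
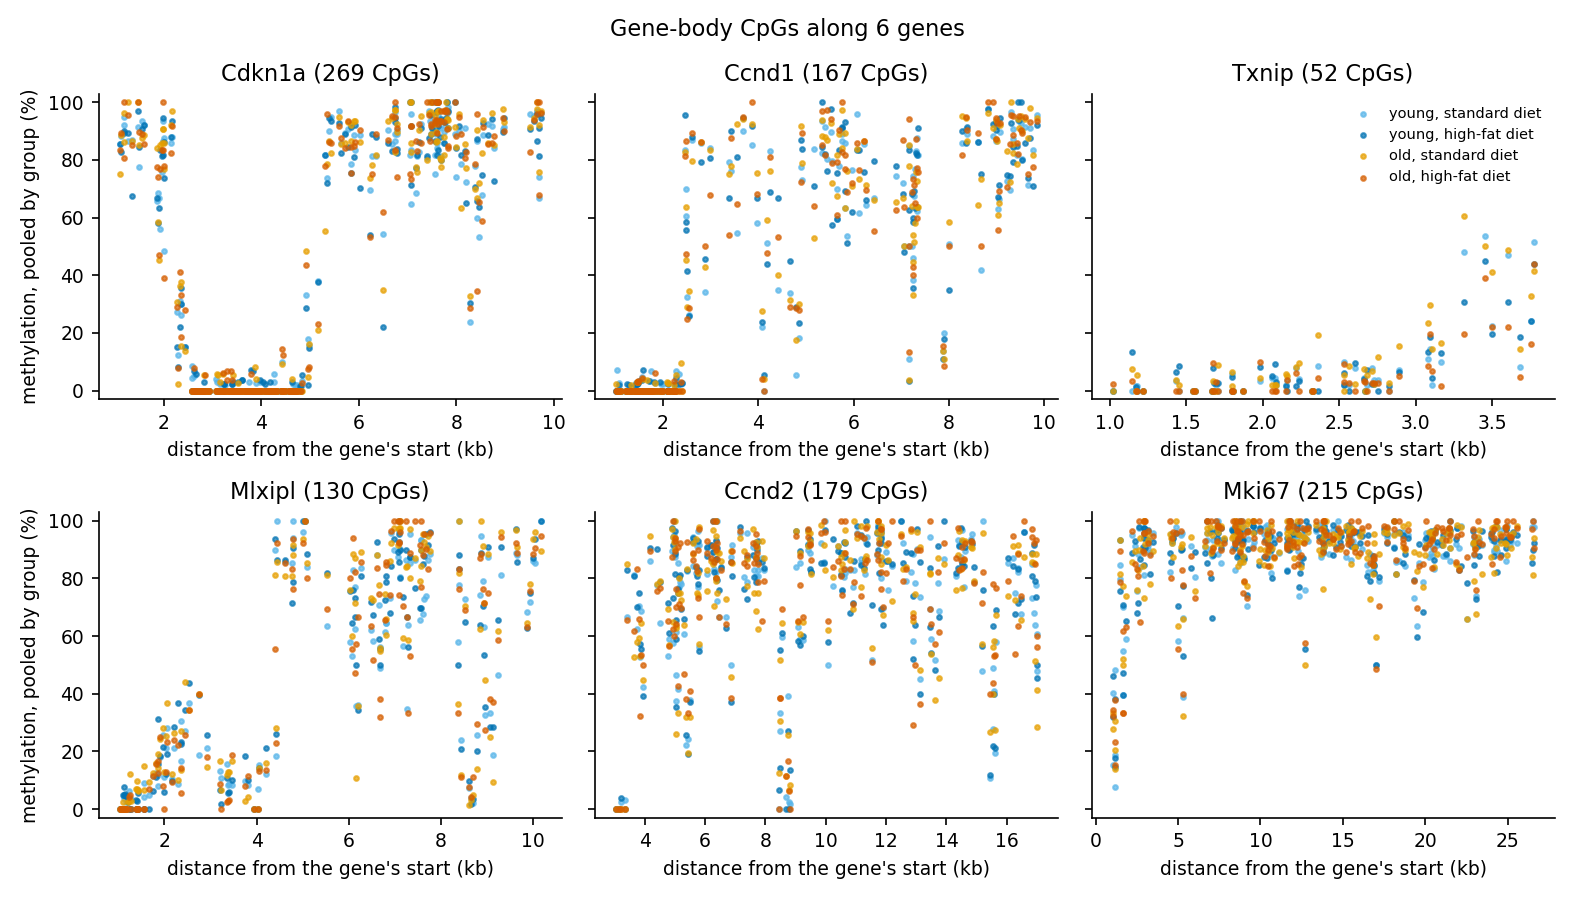
Methylation in percent (y axis) of each gene-body CpG, pooled over the libraries of a group (colours), against distance from the gene's own start in kb (x axis), for 6 genes. Most CpGs at 2.5 to 5 kb in Cdkn1a (mean 0.822%) and at 1 to 2.5 kb in Ccnd1 (mean 3.30%) lie near 0 in all 4 groups, with higher CpGs at the far edges, and Mki67 lies near 90% along most of its length.

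Over all members, the groups differed little. The mean over members was 75.7, 76.1, 76.8 and 76.1% in the 4 young standard-diet libraries and 76.0, 76.3, 76.8 and 76.0% in the 4 young high-fat libraries. It was 77.2, 75.9, 76.9 and 76.4% in the old standard-diet libraries and 77.1, 77.4 and 76.3% in the old high-fat libraries. The ranges of the 4 groups overlapped. High-fat minus standard diet was 0.094 points in young and 0.298 points in old islets, and old minus young was 0.449 points on the standard diet and 0.551 points as the mean of both diets, against a pooled SD between libraries of 0.484 points. Old minus young as the mean of both diets was 0.754 points over intergenic and 0.0921 points over gene-start CpGs. No p-value is given for these means, since they are scores over chosen CpGs. Among the members under 20% the library means ran from 3.16 to 5.51%, and those over 80% ran from 90.1 to 91.8%.

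**Figure D4:**
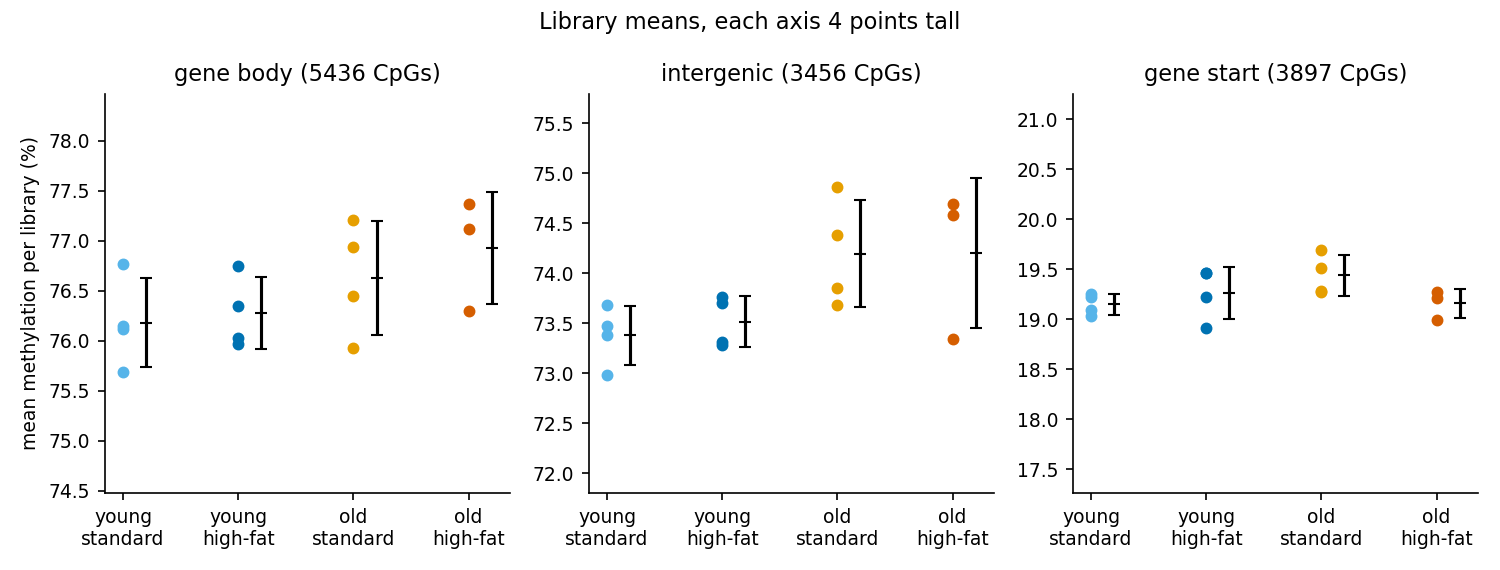
Mean methylation per library in percent (y axes, each 4 points tall) over gene-body, intergenic and gene-start CpGs, 1 point per library, in the 4 groups (x axis), with mean ± SD beside the points. The gene-body means of all groups lie between 75.7 and 77.4% and overlap.

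Single CpGs were tested on their methylated and unmethylated read counts (quasi-binomial F test, dispersion moderated with limma, Benjamini-Hochberg adjustment over all CpGs of the genome tested), at 10 or more reads in each library compared. Runs of neighbouring CpGs, here called clusters, with at least 3 CpGs and gaps of at most 200 bp, were tested in the same way on their summed reads. The CpGs passed the read minimum on coverage alone. Of 5436 members, 1343 could be tested for the diet in young islets, 801 for the diet in old islets, 1036 for age on the standard diet, and 600 for age over both diets and for the interaction. Clusters made of members alone numbered 445 and held 4318 members. The median standard error of a difference, from the spread between libraries, was 5.42 to 6.04 points for a CpG and 2.63 to 2.90 points for a cluster.

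The first comparison asked whether 1 week of high-fat diet altered gene-body methylation in young islets. No member passed the test: 0 of 1343 CpGs reached an adjusted p of 0.05, with 0% of all 2517 CpGs tested, and 0 of 348 clusters, with 0% of all 718. At an unadjusted p under 0.05 were 39 member CpGs (2.90%) and 10 clusters (2.87%), against 2.86% of all CpGs and 4.87% of all clusters tested, and limma on arcsine values also called 0. The median difference was 0.21 points over the CpGs (0 over all CpGs tested) and 0.44 over the clusters (0.42 over all). The cluster with the smallest p was the long one of Cdkn1a, chr17:29092835-29096997 with 188 CpGs, which spans the unmethylated stretch and its flanks. It read 13.6, 15.5, 19.3 and 16.3% on the standard diet and 21.9, 21.4, 18.2 and 16.2% on the high-fat diet, and the groups overlapped. The difference was 3.27 points (adjusted p = 0.973, limma-moderated F test), but 0.0324 points when each of its CpGs had the same weight. A cluster of 4 CpGs in Cdca2 at chr14:67681568-67681731 read 85.7, 91.8, 89.3 and 88.1% against 71.9, 82.0, 76.9 and 82.1%, without overlap, and did not pass (adjusted p = 0.973, limma-moderated). A cluster of 3 CpGs in Ern2, an endoplasmic reticulum stress sensor, differed by -15.3 points (adjusted p = 0.973, limma-moderated). Among single CpGs, the smallest p fell on Cdk1 at chr10:69344291-69344292, which read 100, 100, 95.5 and 90.9% on the standard and 71.4, 80, 58.3 and 80% on the high-fat diet. The groups did not overlap, yet each value rests on about 15.5 reads, and the adjusted p was 1 (limma-moderated). The next were a CpG of Mki67 (-15.1 points) and one of Hmmr (11.1 points), both with an adjusted p of 1 (limma-moderated).

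One result depended on how CpGs were joined. With gaps of at most 100 bp in place of 200 bp, 1 member cluster passed for the diet in young islets. It consists of 9 CpGs in Dlgap1, a synaptic scaffold gene, at chr17:70392672-70392907, and is named here after its values were seen. It read 47.7, 36.0, 23.3 and 46.0% in young standard-diet and 73.2, 58.5, 64.8 and 64.3% in young high-fat libraries, on 25 to 82 summed reads per library. The groups did not overlap, and the difference was 27.0 points (adjusted p = 0.0144, limma-moderated). In old islets it read 70.6, 85.4, 78.8 and 50% on the standard and 52.0, 41.8 and 58.8% on the high-fat diet, and the interaction was -47.3 points (adjusted p = 0.0267, limma-moderated). Joined with its neighbours into 28 CpGs at chr17:70392672-70393470, the young difference was 6.64 points (adjusted p = 0.973, limma-moderated). The authors' deposited table gives log2 changes of Dlgap1 RNA with high-fat diet of -0.00326 in young (adjusted p = 0.993) and -0.35 in old islets (adjusted p = 0.00429).

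The same diet was compared in old islets. Again no member passed: 0 of 801 CpGs passed, with 0% of all 1532, and 0 of 328 clusters, with 0% of all 685. At an unadjusted p under 0.05 were 23 CpGs (2.87%, against 2.48% of all) and 18 clusters (5.49%, against 4.53% of all), and limma on arcsine values called 0. The smallest p fell on Txnip, in a cluster of 47 CpGs at chr3:96559390-96561729 with a mean of 546 summed reads per library. It read 10.4, 14.3, 8.61 and 12.5% on the standard diet and 5.57, 7.99 and 5.01% on the high-fat diet. Each high-fat library lay below each standard-diet library, and the difference was -5.27 points (adjusted p = 0.320, limma-moderated), or -5.42 with equal weight per CpG. Over 11 alternatives it ran from -6.23 to -4.32 points, with adjusted p from 0.0717 to 0.901. In young islets the same cluster read 9.23, 9.26, 7.54 and 8.61% on the standard and 5.68, 9.57, 13.7 and 7.12% on the high-fat diet, which overlap. The difference between the diet effects was -5.65 points (adjusted p = 0.962, limma-moderated). A cluster of 8 CpGs in Ect2, a gene needed for cell division, at chr3:27145881-27146136 read 76.9, 82.1, 78.6 and 78.8% against 84.4, 90.4 and 88.3%. These groups did not overlap either (8.65 points, adjusted p = 0.942, limma-moderated). A cluster of 27 CpGs in Cdca2 differed by -5.67 points (adjusted p = 0.942, limma-moderated). Single CpGs of Nusap1 (-14.1 points), Bbs7, a subunit of the ciliary BBSome (28.0 points), and Cdk7, the kinase that activates other cyclin-dependent kinases (-20.6 points), came next, each with an adjusted p of 0.986 (limma-moderated).

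Age was compared on the standard diet and over both diets. On the standard diet 0 of 1036 member CpGs passed, with 0% of all 1960, and 0 of 343 clusters, with 0% of all 706. Over both diets 0 of 600 CpGs passed, with 0% of all 1143, and 0 of 323 clusters, with 0.149% of all 672. On the standard diet, unadjusted p-values under 0.05 were found for 48 CpGs (4.63%, against 3.32% of all tested) and 18 clusters (5.25%, against 4.39% of all). Over both diets they were found for 27 CpGs (4.5%, against 4.72% of all) and 18 clusters (5.57%, against 6.55% of all), and limma on arcsine values called 0 members in each.

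Ccnd2 held both the CpG and the cluster with the smallest p over both diets. The CpG at chr6:127147407-127147408 read 88.0, 88.5, 72.2 and 72.7% in young standard-diet and 82.8, 64.3, 83.3 and 93.1% in young high-fat libraries. In old libraries it read 58.3, 41.7, 50 and 60% on the standard and 58.8, 64.5 and 60% on the high-fat diet, so all but the highest old library lay below every young one. The age difference was -23.8 points (adjusted p = 0.389, limma-moderated), and -27.9 points on the standard diet alone (adjusted p = 0.971). The cluster of 6 CpGs at chr6:127135416-127135598 went the other way. It read 30.8, 31.5, 39.3 and 45.6% in young standard-diet, 31.3, 55.2, 40.5 and 51.2% in young high-fat, 51.2, 40.6, 53.2 and 51.6% in old standard-diet, and 55.3, 57.6 and 62.2% in old high-fat libraries. The age difference was 13.1 points (adjusted p = 0.270, limma-moderated), and 14.8 points with equal weight per CpG. A second cluster of Ccnd2, 18 CpGs at chr6:127141535-127142600, differed by 7.25 points (adjusted p = 0.506, limma-moderated) and by 2.91 points with equal weight.

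In Plk1, a cluster of 14 CpGs at chr7:122165717-122166440 read 76.2, 78.2, 77.2 and 80% in young and 82.1, 84.7, 87.8 and 86.8% in old standard-diet libraries, without overlap. On the high-fat diet it read 77.5, 88.0, 78.3 and 79.7% in young and 75.8, 91.4 and 91.6% in old libraries, which overlap. The age difference over both diets was 6.41 points (adjusted p = 0.270, limma-moderated), and without old high-fat library 1 it was 9.02 points and passed (adjusted p = 0.0218, limma-moderated). Over the 19 alternatives the adjusted p of this cluster ran from 0.0218 to 0.766. With equal weight per CpG it was 4.6 points. On the standard diet the differences were 7.42 points in this cluster (3.13 points with equal weight per CpG) and 5.72 points in a Mlxipl cluster of 33 CpGs, each with an adjusted p of 0.868 (limma-moderated). Single CpGs of Cdca2 (-13.5 points on the standard diet, -9.60 over both), Ect2 (12.1 points on the standard diet) and Nusap1 (6.48 points over both) had adjusted p-values of 0.931 or above (limma-moderated).

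The interaction asked whether the diet effect differed between ages. No member passed: 0 of 600 CpGs passed, with 0% of all 1143, and 0 of 323 clusters, with 0% of all 672. Unadjusted p-values under 0.05 were found for 28 CpGs (4.67%, against 4.02% of all) and 15 clusters (4.64%, against 4.17% of all), and limma on arcsine values called 0. The Mlxipl cluster at chr5:135113371-135114661 had the smallest p among clusters. It read 80.2, 77.2, 78.5 and 74.0% against 81.7, 78.8, 78.7 and 82.5% in young islets, and 84.2, 80.4, 83.0 and 85.1% against 77.8, 80.3 and 74.7% in old islets, standard before high-fat diet. The old high-fat libraries lay below the old standard-diet libraries, and the young diet groups overlapped. The interaction was -8.51 points (adjusted p = 0.962, limma-moderated). A cluster of 32 CpGs in Hmmr gave -4.53 points (adjusted p = 0.962, limma-moderated). Single CpGs of Rgs2, a regulator of G-protein signalling (23.9 points), Rnf111, a ubiquitin ligase (15.1 points), and Usp5 (21.6 points) each had an adjusted p of 0.972 (limma-moderated).

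**Figure D5:**
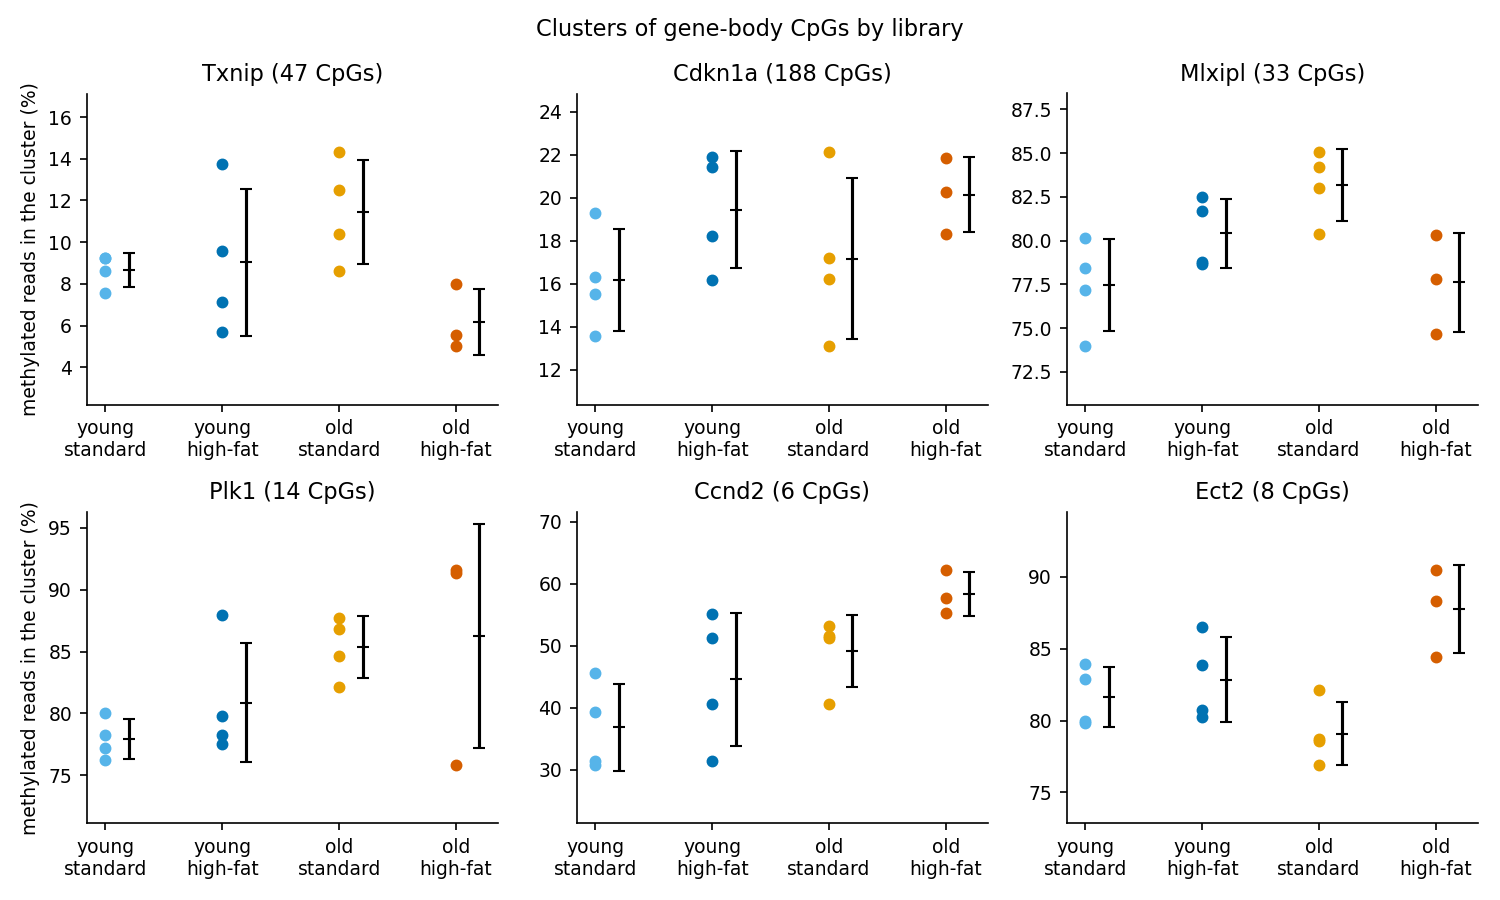
Share of methylated reads in percent (y axes, scaled to each panel) in 6 clusters of gene-body CpGs, 1 point per library in the 4 groups (x axis), with mean ± SD beside the points. In the Txnip cluster the 3 old high-fat libraries lie at 5.01 to 7.99%, below the old standard-diet libraries at 8.61 to 14.3%; in the Plk1 cluster 1 old high-fat library lies at 75.8%, apart from the others at 91.4 and 91.6%.

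RNA of the host genes was measured in 14 other libraries of the same 4 kinds of mice, with 68395276 to 79652561 counts each. The old libraries included near-identical pairs, which were summed here, and how the authors' deposited table treated them is not given in the sources used here. In these bulk samples, fewer cells of a type and less RNA per cell cannot be told apart. Of 134 genes with 3 or more members, 124 had RNA counts in every sample, with a median gene-body level of 87.5%, and 10 did not, with a median of 79.4%. At 5 or more members the medians were 83.4% for 78 genes and 79.7% for 7 genes.

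Several host genes whose bodies differed little with diet had different RNA, whereas the RNA of other host genes did not pass. In the authors' deposited table Usp5 changed by 0.02 (adjusted p = 0.930) and Ccnd1 by 0.10 (adjusted p = 0.642) on the log2 scale in young islets. How body methylation and RNA are related was not tested. In young islets Mki67 RNA was 14.6, 9.74 and 11.9 CPM on the standard diet and 31.8, 16.7 and 21.6 on the high-fat diet. The authors' deposited table gives a log2 fold change of 0.66 (SE 0.14, adjusted p = 0.000202), while the Mki67 body averaged 88.6 and 88.5% in the 2 diets. In the authors' deposited table Cdk1 rose by 0.83 (adjusted p = 1.01e-06), Hmmr by 0.93 (adjusted p = 2.41e-09) and Ube2c by 0.76 (adjusted p = 1.66e-05) on the log2 scale in young islets. The mean body levels of Cdk1 were 82.4 and 83.1%, those of Hmmr 90.3 and 91.0%, and those of Ube2c 77.8 and 78.5%, standard before high-fat diet. In old islets Mki67 RNA was 2.23, 19.3 and 3.59 CPM on the standard diet and 8.97, 6.43 and 4.45 on the high-fat diet. The standard-diet value of 19.3, from the summed near-identical pair, was the highest of the old samples, while the other standard-diet samples were the lowest, so that sample alone sets the direction of the mean difference. For Cdk1 the same sample read 2.56 CPM, against 0.57 and 0.741 in the other standard-diet samples. In old islets, the authors' deposited table gives log2 changes of -0.03 for Mki67 (adjusted p = 0.929) and 0.28 for Cdk1 (adjusted p = 0.382).

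Cdkn1a RNA was 25.3, 36.1 and 24.5 CPM in young standard-diet and 43.4, 49.3 and 45.6 in young high-fat samples. In the authors' deposited table it rose by 0.64 in young (adjusted p = 1.62e-06) and by 0.91 in old islets (adjusted p = 7.07e-11) on the log2 scale. The body of Cdkn1a averaged 34.3 and 34.4% in the young and 35.1 and 34.7% in the old diet groups. That average includes 100 members within 1 kb of a RefSeq start, and the 157 members at 2.5 to 5 kb averaged 0.822%. Txnip RNA was 660, 520 and 710 CPM in old standard-diet and 1111, 933 and 878 in old high-fat samples, and 341 to 383 in all young samples. In the authors' deposited table it rose by 0.75 in old islets (SE 0.08, adjusted p = 2.49e-17), while the change of 0.11 in young islets did not pass (adjusted p = 0.348). Its body averaged 10.2 ± 2.82% and 5.17 ± 0.788% in old libraries (SD, n = 4 and 3), and 8.02 ± 0.786% and 7.34 ± 1.67% in young libraries (SD, n = 4 each), standard before high-fat diet. Whether the RNA and the methylation of Txnip are related was not tested, since the labels do not say which libraries share animals.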

How the data were processed

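The authors deposited, for each of 15 methylation libraries, the read count (coverage) of each CpG and, as percent, the shares of C and T among its reads. The submitters' processing notes name Trimmomatic, BSMAP, STAR 2.4.2a, featureCounts 1.4.3, Picard 1.83, bedtools, DESeq2 and mm10; whether duplicate reads were removed is not given in the sources used here. The authors also deposited RNA counts per gene and tables of log2 fold changes with p-values. Strands were merged here per CpG, and all 704 CpGs that lay in a RefSeq promoter window read CG. Tests were run in R 4.3.3 with limma 3.58.1 and Python 3.11.15. They used a quasi-binomial model per CpG or cluster, with dispersion moderated and held at 1 or above. The F test was two-sided and adjusted over the whole table. The CpG test was also run on reads simulated at the real coverage. Of 200 CpGs changed by 20 points, 0 were recovered for the diet in young islets, the diet in old islets or age on the standard diet. At 40 points, 42.5, 26.5 and 66.0% were recovered, in the same order. The simulation covered all 2517, 1532 and 1960 CpGs tested, in that order, and not members alone. Its rates also depend on the levels of the CpGs changed and on the spread assumed between libraries. Recovery among members, most of which were over 80% methylated, was not computed, so these rates do not give the power for members.

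Named genes are the 12 with most members and the 4 with most members of each level class, with up to 5 of each gene list; named CpGs and clusters are the 3 with the smallest p where fewer than 3 passed. Members and lists were chosen with earlier results of these data known. Near-identical old RNA libraries (standard diet 2 and 4, high-fat 1 and 4) were summed, leaving 12 samples. Gene models, exons and sequence outside promoter windows were not analysed here, and 1 gene that the naming rule picks is not reported here.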

Additional observations from a re-analysis of the deposited data

Results flagged for a closer look

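In 138 groups of 4 libraries, 9 held a library far from the other 3 by Dixon's criterion, where chance gives about 1 in 20. Among gene bodies, Ccnd2 read 68.9% in old standard-diet library 2, against 75.4 to 76.2% in the other 3, and its cluster of 6 CpGs read 40.6% in the same library, against 51.2 to 53.2%. Cdkn1a read 34.98% in young high-fat library 3 (others 34.2 to 34.3%), Ccnd1 39.5% in young high-fat library 1 (others 40.3 to 40.5%) and Ccnb2 87.6% in young standard-diet library 2 (others 89.1 to 89.4%). Another 3 of the 9 are single CpGs at which the other 3 libraries all read 100%, where the criterion is met by any lower value, so they carry no weight: Mki67 at 91.7% in young standard-diet library 1, Ect2 at 95.2% in young high-fat library 4, and Nusap1 at 91.3% in old standard-diet library 1. The Hmmr cluster read 92.3% in old standard-diet library 3, against 93.3 to 93.6%.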

How the results depend on the processing

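Of 171 alternatives for the counts of called members, 168 gave 0. Joining CpGs over at most 100 bp gave 1 called cluster for the diet in young islets and 1 for the interaction (Dlgap1 in both), and leaving out old high-fat library 1 gave 1 for age over both diets (Plk1); leaving out each other library gave 0. The fits with the replicate block gave 0 in each comparison and differences of library means of 0.402 points (diet, old) and 0.631 points (age, both diets); numbers did not pair the libraries, with correlations of same-numbered deviations from -0.0673 to 0.0138. The differences of library means lay less than 1 pooled SD from their main values in 64 of 66 alternatives. A change of sign could count among these. With all young libraries kept, the diet difference in young islets fell as low as -0.264 points. The exceptions were 0.751 points with pooled reads for the diet in young islets and 1.19 points as a mean of gene means for the diet in old islets. Without each library in turn they ran from -0.0714 to 0.291 (diet, young), 0.0632 to 0.612 (diet, old), 0.256 to 0.684 (age, standard diet) and 0.441 to 0.708 (age, both diets). The share of low members was 7.30% with limits of 10 and 90%. It was also 7.30% without members within 1 kb of an available RefSeq start, and 3.13% without the 4 lowest genes. These last 2 settings, equal weights within clusters, and the tests of CpGs joined over up to 10 kb, which also gave 0, were chosen after seeing the data. Since the available RefSeq starts were incomplete, members near other starts may remain in the RefSeq setting. At 5 or more reads in every library, gene-body means exceeded intergenic means by 3.98 and gene-start means by 54.0 points. The median standard error of a difference was 5.42 points or more for a single CpG, and a count of 0 does not show that members were alike.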
